A study of Mus musculus with 4 samples.

Results

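A set of 9 genes that switch the contractile programme of smooth muscle on or off was read in newborn mouse ureter and in whole newborn mice. They are Myocd, Srf, Mef2a, Mef2c, Mef2d, Prkg1, Elk1, Elk4 and Klf4. Their probe sets were taken from the array's value table wherever the platform annotation gave a single gene symbol and that symbol was one of the 9, which gave 29 of 45101 probe sets and 9 of 18194 named genes. All 9 genes had at least 1 probe set bright enough to be tested. In all, 21 of the 29 probe sets passed the filter on low intensity and 8 did not.

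Of the 4 arrays, 3 were hybridized with ureter RNA and 1 with RNA of a pool of whole mice. Both groups were FVB/N mice at postnatal day 1 (Theiler stage 27). The ureters were unpooled whole ureters cut from kidney and bladder of males carrying the SMGA/EGFP transgene, whose name refers to smooth muscle gamma-actin. The reference pool was of both sexes and had no reported transgene, so tissue, sex, transgene and pooling cannot be told apart. The labels do not say whether each ureter is from a different animal. Every p-value therefore rests on the spread among these 3 samples alone, part of which may be technical. The single reference array was assumed to vary like the ureters.

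Smooth muscle genes are controlled largely by serum response factor (SRF), a protein that binds the CArG box, a run of A and T bases between CC and GG. SRF is a weak activator on its own. Myocardin, the product of Myocd, binds SRF and turns on contractile genes in smooth and cardiac muscle, whereas the ternary complex factors Elk1 and Elk4 bind the same face of SRF after growth factor signalling and turn on immediate early genes instead. MEF2 proteins are relatives of SRF with their own binding sequence, KLF4 represses the contractile genes when smooth muscle cells switch to a non-contractile state, and cGMP-dependent protein kinase I, encoded by Prkg1, relaxes smooth muscle and favours the contractile state.

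The promoter of Srf is shown first because it holds the sequence that SRF itself binds. Promoter windows from RefSeq (build GRCm38.p6) run from 250 bases before to 50 after each start site, and were present for 8 of the 9 genes, all but Myocd. They were searched on both strands for the CArG box and for the MEF2 box, the A/T-rich sequence that MEF2 proteins bind. The stretch before the Srf start site lies at chr17:46556163-46556412 on the minus strand, with CArG boxes in capitals:
Srf: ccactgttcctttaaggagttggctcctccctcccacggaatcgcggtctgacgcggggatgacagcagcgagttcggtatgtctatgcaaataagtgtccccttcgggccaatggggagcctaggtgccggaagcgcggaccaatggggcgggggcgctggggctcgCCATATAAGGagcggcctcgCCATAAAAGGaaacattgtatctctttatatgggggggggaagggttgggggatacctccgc
The boxes sit at -82 to -73 and at -62 to -53 from the start site. Srf was the only one of the 8 genes with a CArG box in its window, and 1.81% of all 27025 genes with a window had one. The window of Mef2a was the only one of the 8 with a MEF2 box, against 3.70% of all genes. It crosses the start site, at chr7:67372841-67372870 on the minus strand, with the box in capitals:
Mef2a: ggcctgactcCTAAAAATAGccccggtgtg
A match describes these letters only, and the windows leave out introns and distant enhancers.

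Myocd was the gene that passed the test. Intensities are given after quantile normalization, and differences are ureter minus reference on the log2(intensity + 12.23) scale, with the standard error (SE) of the fit by limma, a linear model with spread shared across probe sets. The p-values are Benjamini-Hochberg adjusted over all 27022 probe sets tested, with a threshold of 0.05. Its brightest probe set read 2603, 13120 and 5477 across the ureters, given here and throughout in the order of replicates 1, 2 and 3, and 314 in the reference. All 3 ureters lay above the reference, and the ureters differed among themselves by 5.04-fold. The mean difference was 4.14 ± 0.83 (SE, n = 3 and 1), or 17.6-fold, with an adjusted p of 0.0428 by limma and a 95% interval of 2.12 to 6.16. The standard deviation between ureters was 1.17, higher than in 97.3% of tested probe sets of like intensity.

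The other Myocd probe set was too dim to be tested. It read 333.6, 198.8 and 239.6 in the ureters, each above that array's background, and 18.55 in the reference, which was below background. That is at least 1.90-fold higher in the ureters, the reference being set to its background level, and here the 3 ureters lay close together. Background means the highest reading among 27 bacterial control probe sets whose transcripts had not been added to the RNA. Normalized, it was 94.2, 188 and 134 in the ureters and 127 in the reference.

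The Myocd call depended on the processing and on 1 array. Its difference was 4.08 with an adjusted p of 0.154 without ureter replicate 3, and 3.70 with an adjusted p of 0.0505 with the scaling as deposited. Without the filter the adjusted p was 0.0729, and without the intensity trend 0.0966. Over the 10 alternative fits the difference ranged from 3.59 to 4.54 and the adjusted p from 0.00457 to 0.154.

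**Figure D1:**
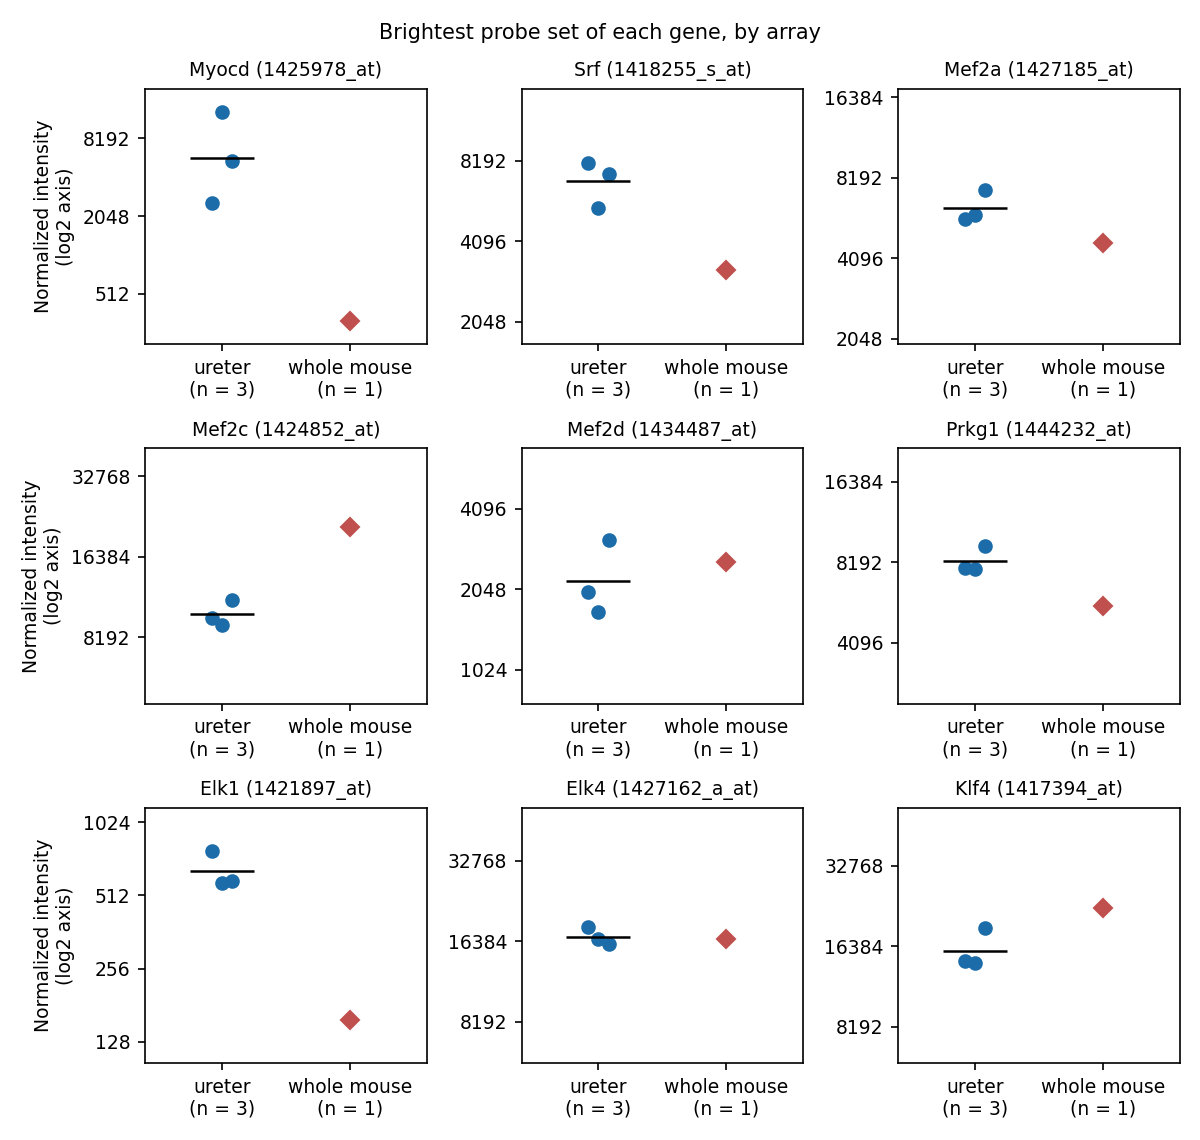
Normalized intensity (log2 axis, a separate range in each panel) of the brightest probe set of each of the 9 genes, with 1 circle for each of the 3 ureter arrays, a bar at their mean on the log2 scale and a diamond for the 1 whole-mouse array. The Myocd circles run from 2603 to 13120 against 314 in the whole mouse, and the Mef2c and Klf4 circles all lie below the diamond.

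Of the 21 tested probe sets of the 9 genes, 1 was called higher and 0 were called lower by limma, or 4.76%, against 6.37% of all probe sets tested (2.94% higher and 3.42% lower). At an unadjusted p under 0.05 the count was 6 (4 higher and 2 lower). The share of all tested probe sets or genes under that unadjusted threshold is not given here. This count and the unadjusted counts of the lists below therefore have no background to be read against. By gene, 1 of 9 was called, or 11.1%, against 7.98% of the 13714 genes represented by their brightest probe set, and 5 of 9 had every ureter above the reference and 2 every ureter below it, against 39.9% and 31.5% of all genes. In 8 of the 21 probe sets every ureter lay above the reference and in 6 every ureter lay below it, while the corresponding shares among all tested probe sets were 39.2% and 30.1%. The median difference of the 21 was 0.03, and that of all tested probe sets 0.11.

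SRF is the partner through which myocardin acts, and its transcript leaned the same way without passing. The brighter Srf probe set read 8043, 5464 and 7320 in the ureters and 3190 in the reference, so the groups did not overlap. The difference was 1.10 ± 0.34, or 2.14-fold, with an adjusted p of 0.112 by limma and a 95% interval of 0.28 to 1.92. It stayed positive in all 10 alternative fits, from 0.97 to 1.90, and passed in none of them. The dimmer probe set read 412, 400.7 and 501.9 against 343.5, a difference of 0.33 ± 0.47 (adjusted p = 0.713 by limma) that turned to -0.27 with the scaling as deposited.

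The 3 MEF2 genes did not show one pattern. Mef2a encodes a family member found in many tissues. Its brightest probe set read 5730, 5934 and 7344 in the ureters and 4670 in the reference, all ureters above it, with a difference of 0.43 ± 0.30 (adjusted p = 0.431 by limma). The next in brightness gave 0.50 ± 0.36 and the third gave 1.09 ± 0.43, again with every ureter above the reference. The dimmest tested one overlapped the reference (-0.17 ± 0.50), and the other pair of Mef2a probe sets was at background on all 4 arrays. None of these passed.

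Mef2c, which is needed in heart, skeletal muscle and neurons as well as in vessels, pointed down. Its brightest probe set read 9645, 9086 and 11270 in the ureters and 21090 in the reference, with close ureters and no overlap. The difference was -1.08 ± 0.25, a reference level 2.12-fold that of the ureters, and it missed the threshold (adjusted p = 0.0583 by limma, 95% interval -1.68 to -0.48). It passed when 60% of probe sets in place of 40% were filtered out (adjusted p = 0.0442), where fewer probe sets share the adjustment. With median-centred arrays the difference was -0.30 (adjusted p = 0.748 by limma), where the median difference over all probe sets was 0.61.

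In 4 of the 5 Mef2c probe sets every ureter lay below the reference. The third in brightness had the largest gap, reading 795.2, 1516 and 775.2 against 2958 (-1.58 ± 0.51, adjusted p = 0.128 by limma), and it passed without ureter replicate 2 (-1.92, adjusted p = 0.0458). The next brightest (-0.41 ± 0.36) and the fourth (-0.88 ± 0.52) did not pass, nor did the dimmest (-0.20 ± 0.76), whose ureters ran from 208.3 to 771.2 around a reference of 448.3. Markers of several tissues of the whole mouse had lower sums in the ureters, as Mef2c did. Markers of skeletal muscle summed to between 5724 and 15070 in the ureters and to 414200 in the reference (18 genes; 13 of 17 tested were lower), and Myf5, Myf6 and Ryr1 were at background in every ureter. The 14 central neuron markers summed to between 5655 and 5884 against 25050 (4 of 13 lower and 0 higher), with Neurod6, Slc17a6, Gad1, Gad2 and Tubb3 at background in every ureter. Those of cardiac muscle summed to between 48630 and 53430 against 175600 (15 genes; 7 lower and 1, Tnnt2, higher), with Myl3, Nppa, Tnni3 and Myoz2 at background. Endothelial markers had higher sums in the ureters, between 33330 and 33750 against 20730 (2 of 11 higher and 0 lower, none at background in every ureter). The part of these tissues in the Mef2c values was not tested, and in such bulk samples fewer cells of a type and less RNA per cell cannot be told apart.

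Mef2d, the most widely expressed of the family, gave no clear direction. The brightest probe set of Mef2d read 1997, 1682 and 3127 in the ureters around a reference of 2594 (-0.24 ± 0.45, adjusted p = 0.788 by limma, 95% interval -1.35 to 0.86). A dimmer one had all ureters below the reference, at 434.8, 199.6 and 347.3 against 520.1, and did not pass (-0.72 ± 0.60). The remaining probe set was not tested and read 28.74, 223.9 and 185.9 against 145.4. The sign of the brightest one depended on the scaling, since median-centred arrays turned it to 0.51.

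**Figure D2:**
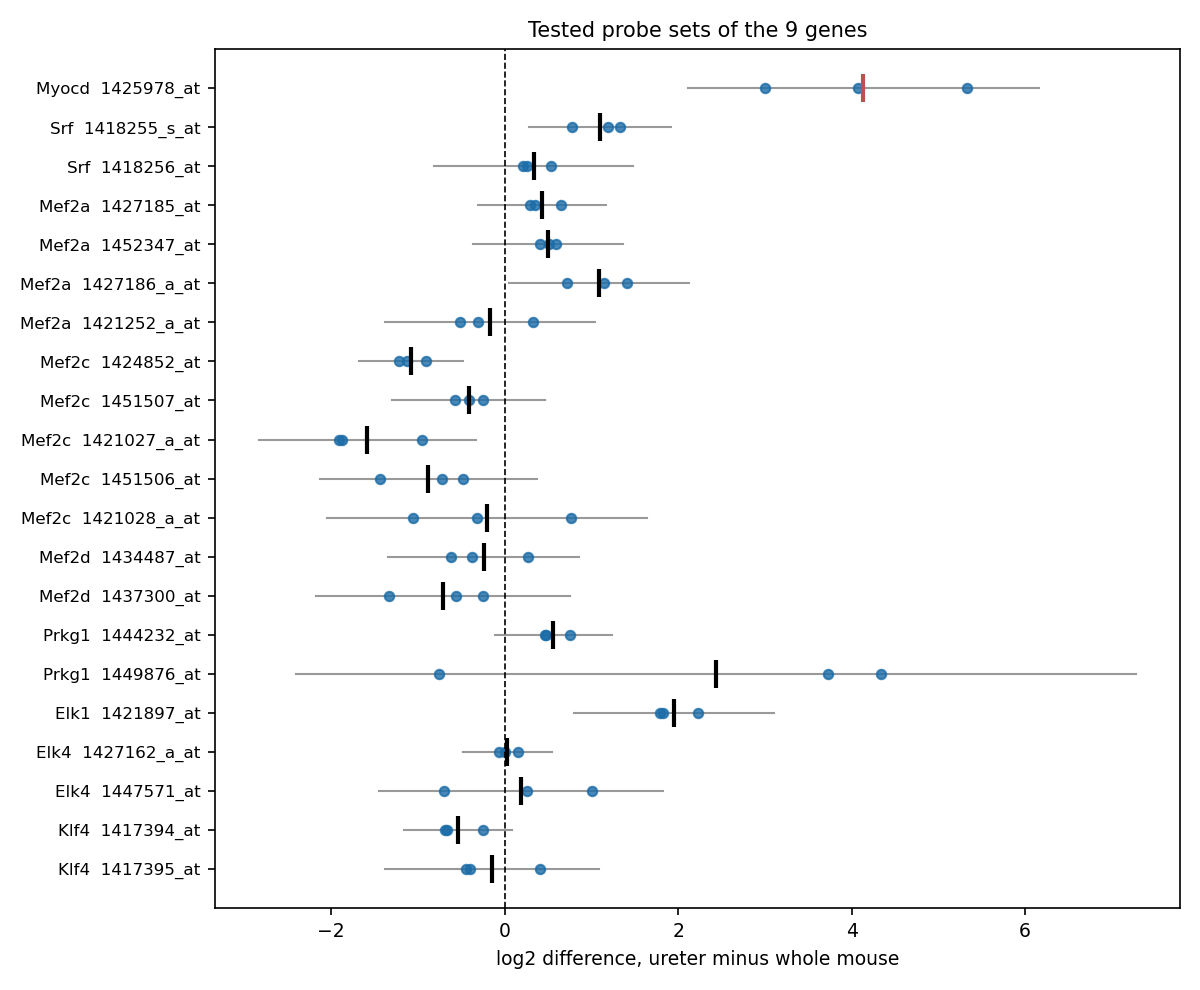
Log2 difference, ureter minus whole mouse, for the 21 tested probe sets of the 9 genes. Circles are the 3 ureters, the vertical tick is their mean (red where limma's adjusted p is under 0.05) and the grey line is the 95% interval; the red tick is Myocd at 4.14, and 4 of the 5 Mef2c rows have all circles left of 0.

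Prkg1, the kinase gene, was read by a bright and a dim probe set that differed in size. The bright one gave 7812, 7744 and 9432 in the ureters and 5611 in the reference. Every ureter was above the reference, but the difference of 0.56 ± 0.28, or 1.48-fold, did not pass (adjusted p = 0.269 by limma, 95% interval -0.11 to 1.24). It kept its sign in the 10 alternative fits, from 0.47 to 1.41.

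The dim Prkg1 probe set was among the most variable of its intensity, its standard deviation exceeding that of 99.7% of like probe sets. It read 7.47 in ureter replicate 1, 660.9 in replicate 2 and 431.7 in replicate 3, against 21.2 in the reference, and only replicates 2 and 3 were above background. The reference was below its background, so only a bound can be given, at least 1.30-fold higher in the mean of the 3 ureters. The probe set passed the intensity filter, at a mean of 193.9 against a cutoff of 152.7, only through ureter replicates 2 and 3. Neither the bound nor the fit is therefore independent evidence of a difference. The fit, which takes the reference reading as it stands, gave 2.435 ± 1.994 and did not pass (adjusted p = 0.502 by limma). Its 95% interval was -2.41 to 7.28. Without ureter replicate 1 the difference was 4.01. That fit leaves out the only ureter below the reference, so its passing the threshold is not evidence of a difference.

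Replicate 1 was also the lowest and replicate 2 the highest ureter at the bright Myocd probe set. After normalization the dimmer Myocd probe set ran in the reverse order (333.6, 198.8 and 239.6), and the bright Prkg1 probe set in neither order (7812, 7744 and 9432). As deposited the dimmer Myocd probe set read 235.6, 223.4 and 192.4, which is not that reverse order. The summed intensity of markers of kidney, from which the ureters were cut, ran in the order of the bright Myocd probe set. It was 1782, 11380 and 6069 in ureter replicates 1, 2 and 3 and 7819 in the reference. Of the 9 genes none was at background in every ureter, and 0 of 8 tested were called. By gene, Slc12a1, Umod, Lrp2, Aqp2 and Slc12a3 ran in that order, while Slc34a1 and Cubn were highest in replicate 3 and Kap in replicate 1. Summed markers of skeletal muscle (5724, 15070 and 6206), epidermis (31690, 34700 and 31980) and lymphocytes (2121, 2500 and 2410) also ran in that order. So did the normalized background (94.2, 188 and 134), while the sums of the remaining marker lists did not. The sum of the 8 smooth muscle markers did not run in that order, at 170400, 181600 and 190800 against 63860 (7 of 8 higher and 0 lower, none at background in any group). The 18S ribosomal control read 15100, 74800 and 25100 in the ureters and 69800 in the reference as deposited. The part of these in the level and the spread of Myocd and Prkg1 was not tested.

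The ternary complex factors compete with myocardin for SRF, and the 2 genes differed in what they showed. Elk1 had the second largest difference among the brightest probe sets of the 9 genes. It read 779.9, 575.1 and 588.8 in the ureters and 157.0 in the reference, with no overlap and little spread among ureters. The difference was 1.95 ± 0.48, or 3.86-fold, and missed the threshold (adjusted p = 0.0676 by limma, 95% interval 0.80 to 3.10). It was between 1.33 and 2.07 in the 9 alternative fits that tested it and passed in none of them. With each gene's probe sets averaged, a step that leaves the Elk1 difference as it is but lowers its SE to 0.43 and the number of tests, it passed (adjusted p = 0.0327). The other pair of Elk1 probe sets was not tested: one read 175.9, 20.74 and 66.07 in the ureters and 120.5 in the reference, and the other was at background on every array.

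Elk4 overlapped between the groups at its bright probe set. It read 18570, 16750 and 16000 in the ureters and 16710 in the reference, so the reference fell inside the ureter range. The difference was 0.03 ± 0.21, with an adjusted p of 0.946 by limma and a 95% interval of -0.49 to 0.55. A dimmer probe set spread from 703.8 to 2328 in the ureters around a reference of 1149 (0.19 ± 0.67). The other pair was at background on all 4 arrays.

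Klf4, the repressor, was not shown to differ. At its brighter probe set the ureters read 14430, 14160 and 19210 and the reference 22840, each ureter below it. The difference was -0.53 ± 0.26 and did not pass (adjusted p = 0.259 by limma, 95% interval -1.16 to 0.09), and with median-centred arrays it was 0.23. The dimmer probe set overlapped the reference, at 655.8, 1197 and 678.8 against 899.6 (-0.15 ± 0.51). KLF4 is also a factor of barrier epithelia. Epidermal markers summed to between 31690 and 34700 in the ureters and to 193800 in the reference (11 genes; 7 lower and 1, Sprr1a, higher), with Krt1, Lor, Flg, Dsg1a and Sprr1b at background in every ureter. Intestinal markers summed to between 3335 and 7070 against 153500 (8 of 9 tested lower; Fabp1, Cdx1 and Apoa4 at background in every ureter), and those of urothelium, the epithelium that lines the ureter, to between 219100 and 323500 against 66370 (9 of 14 higher, none at background in every ureter). Their part in the Klf4 values was not tested.

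**Figure D3:**
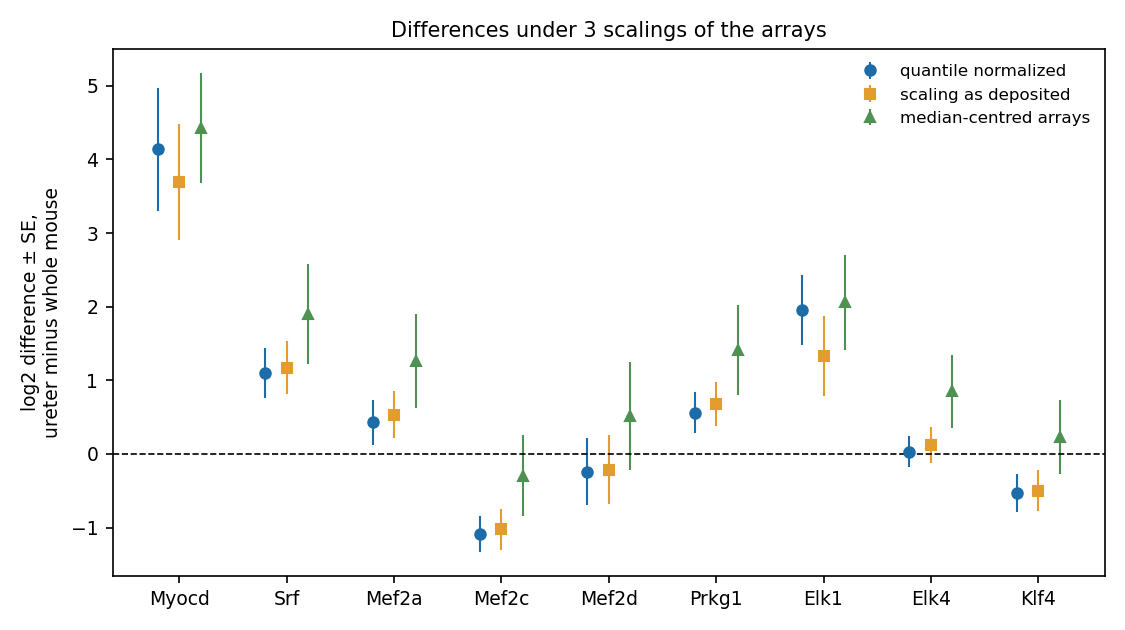
Log2 difference ± SE, ureter minus whole mouse, of the brightest probe set of each gene under quantile normalization (circles), the scaling as deposited (squares) and median-centred arrays (triangles). Myocd, Srf, Mef2a, Prkg1, Elk1 and Elk4 stay above 0 and Mef2c below 0 in all 3, while Mef2d and Klf4 change side.

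The direction of small differences depended on how arrays were put on a common scale. The median difference over all probe sets was 0.11 after quantile normalization, -0.15 as deposited and 0.61 with median-centred arrays. At their brightest probe sets, Myocd, Srf, Elk1, Mef2a and Prkg1 lay above that median by more than 1 SE under each of these. Mef2c lay below it by more than 1 SE under each. Klf4 lay below it by more than 1 SE after quantile normalization and as deposited, but by less with median-centred arrays. Mef2d was within 1 SE of it under each. The sign of Klf4 and Mef2d against 0 changed with the scaling.

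Other regulators around myocardin and SRF were counted in lists compiled for this tissue, each gene by its brightest probe set. Over all genes tested 3.24% were called higher and 4.75% lower, with a median difference of 0.10. Among 25 partners and upstream factors of myocardin, 4 were higher and 1 lower, with a median of 0.71. Tbx18, a T-box factor of the ureteric mesenchyme, was higher by 5.23 ± 0.27, and Foxo4, a forkhead protein known to bind and restrain myocardin, was at least 5.74-fold higher, its reference array being at background. That background, 127, lies under the filter's cutoff of 152.7, so Foxo4 was tested only because its ureters were high. Its call, 1 of the 4, is no independent evidence. Tcf21, a factor of fibroblast precursors, was higher by 3.01 ± 0.39 and Gata6, which favours the contractile state, by 1.91 ± 0.33. Fhl1, a LIM protein of striated muscle, was lower (-1.38 ± 0.23), a call lost under 4 alternatives (adjusted p 0.0602 to 0.181); it and the genes in the next sentence were chosen after their values were seen. The myocardin relatives Mrtfa (0.99 ± 0.44, adjusted p = 0.227 by limma) and Mrtfb (-0.58 ± 0.33, adjusted p = 0.336) did not pass, and Mrtfb turned to 0.21 with median-centred arrays. Only 1 of these genes was called higher and 0 lower without ureter replicate 3, where the adjusted p was 0.103 for Foxo4, 0.0976 for Tcf21 and 0.133 for Gata6; Gata6 also missed without the intensity trend (0.0637).

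The lists around MEF2 and around Klf4 and the Elk genes gave no calls. Of 19 genes tested in the list around MEF2 0 passed limma's adjusted test (8 at an unadjusted p under 0.05), with a median of 0.43, and without ureter replicate 2 1 was lower. That list held histone deacetylases, kinases and phosphatases, and also Mef2b, the Nfatc genes, Cabin1 and Ppargc1a. Of 16 genes tested in the list of Kruppel-like and ternary complex relatives, which also held kinases upstream of them, 0 passed (6 unadjusted), with a median of 0.42. When each gene's probe sets were averaged, 2 were higher. Elk3, the remaining ternary complex factor, differed by 0.79 ± 0.37 and Klf5, which promotes the non-contractile state, by 0.56 ± 0.41; both were chosen after their values were seen.

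Some genes of the cGMP pathway, in which the Prkg1 product acts, were higher. Of 23 tested, 4 were higher and 0 lower, with a median of 0.77. Pde5a, the phosphodiesterase that breaks down cGMP, read 17950, 21930 and 22340 in the ureters and 2771 in the reference, a difference of 2.89 ± 0.25 (adjusted p = 0.00642 by limma). Mrvi1, which encodes the kinase's substrate at the calcium store, was higher by 2.50 ± 0.31, Ppp1r12a, the targeting subunit of myosin phosphatase, by 2.50 ± 0.18 and Rgs2, a G protein regulator that the kinase activates, by 1.70 ± 0.24. Each of the 4 had 2 probe sets called higher and 0 called lower. Without ureter replicate 3, 2 were called, Mrvi1 (adjusted p = 0.0962) and Rgs2 (0.0795) having missed; Rgs2 also missed without the intensity trend (0.0872).

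The contractile targets themselves gave the most calls of the 7 lists described. Of 31 tested, 12 were higher and 3 lower, or 48.4%, against 7.98% of all genes, with a median of 1.29. This list overlaps one already known to be higher in these arrays and is no independent evidence. Calponin, Cnn1, read 3260, 4291 and 4759 in the ureters and 300.3 in the reference (3.70 ± 0.39, adjusted p = 0.0106 by limma), and Synpo2, an actin-bundling protein, was higher by 3.63 ± 0.25, although another Synpo2 probe set was called lower. The lower genes included Pln (-3.91 ± 0.79), a calcium pump inhibitor of heart and smooth muscle, and Sgca (-4.91 ± 0.70), a sarcoglycan of striated muscle above background in 1 of 3 ureters. Without the intensity trend 5 were higher and 1 lower. Without ureter replicate 3, 4 were higher and 0 lower, with an adjusted p of 0.0656 for Cnn1, 0.118 for Pln and 0.0824 for Sgca, and Pln also missed as deposited (0.0719), without the filter (0.0779) and without the intensity trend (0.0855).

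The list of contractile targets was compiled partly from known targets of myocardin and SRF, so its share of CArG boxes is no independent evidence. Of the 24 contractile targets with a promoter window, 4 held a CArG box, or 16.7%, against 1.81% of all genes with a window. They are shown with the box in capitals, as a comparison with the Srf promoter, and lie at chr2:156775288-156775327 (plus strand), chr10:128493035-128493074 (minus), chr14:20929156-20929195 (plus) and chrX:82948757-82948796 (plus) of GRCm38.p6:
Myl9: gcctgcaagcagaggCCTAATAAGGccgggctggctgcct
Myl6: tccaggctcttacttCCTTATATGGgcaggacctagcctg
Vcl: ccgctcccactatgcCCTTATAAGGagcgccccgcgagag
Dmd: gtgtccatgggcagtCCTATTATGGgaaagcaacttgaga
These genes were named for the match, after their values were seen. The myosin light chain genes Myl9 (2.33 ± 0.29, adjusted p = 0.0152 by limma) and Myl6 (2.08 ± 0.42, adjusted p = 0.0444) were higher. Myl9 missed without ureter replicate 3 (0.0717) and without the intensity trend (0.0624), and Myl6 missed under 7 of 10 alternatives (up to 0.188). Vcl, which encodes vinculin of cell attachments (0.59 ± 0.18, adjusted p = 0.113), and Dmd, the dystrophin gene (1.07 ± 0.35, adjusted p = 0.128), did not pass.

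Genes of the alternative SRF programme were called about as often as genes in general. Of 17 immediate early genes tested 0 were higher and 1 lower by limma, or 5.88%, against 7.98% of all genes, with a median of 0.34. At an unadjusted p under 0.05, 3 were higher and 2 lower. Egr3, an early growth response factor of muscle spindles and brain, read 49.06, 168.1 and 180.2 in the ureters, above background in 1 of 3, and 4500 in the reference (-5.13 ± 0.79, adjusted p = 0.0231 by limma, and 0.0780 without ureter replicate 3). Egr3 passed the intensity filter only through its high reference reading, so this call is no independent evidence. Under 6 alternatives 2 were lower: without ureter replicate 1, without replicate 2, with median-centred arrays, with an offset of 50, with 60% filtered out and with probe sets averaged, the last also giving 1 higher. Of 20 genes of the non-contractile state 1 was higher and 1 lower, or 10%, with a median of 0.24. Myh10, a non-muscle myosin, was higher by 0.85 ± 0.17, and Mmp9, a matrix protease, lower (-3.37 ± 0.49). Neither passed without ureter replicate 3 (0.194 and 0.0973), and Myh10 missed under 4 more alternatives: as deposited (0.0774), without the filter (0.0989), without the intensity trend (0.227) and without replicate 2 (0.0576).

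**Figure D4:**
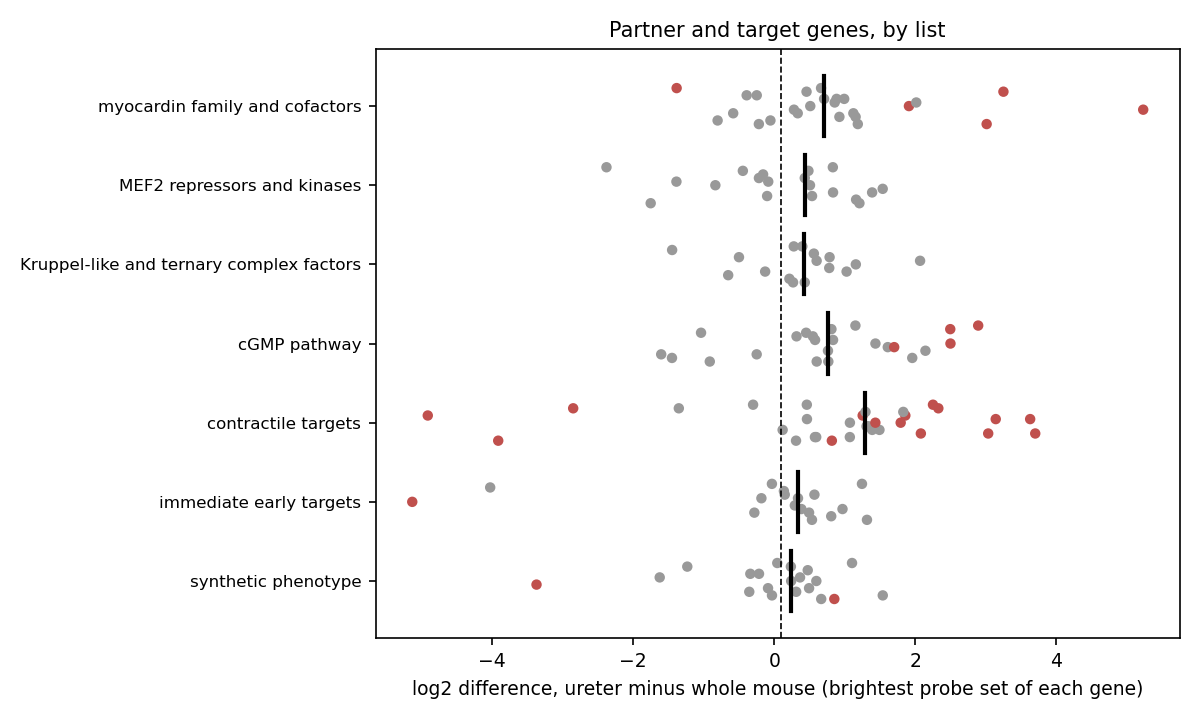
Log2 difference, ureter minus whole mouse, of each tested gene in 7 lists, 1 dot a gene by its brightest probe set, red where limma's adjusted p is under 0.05; the bar is the list's median and the dashed line the median of all genes at 0.10. The contractile targets have a median of 1.29 and 12 red dots to the right, and the MEF2 and Kruppel-like lists have no red dots.

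Genes with a pattern like that of Myocd were looked for by the distance between their 3 ureter-minus-reference differences and those of Myocd, a description over 3 arrays that share 1 reference. The nearest of 13714 genes were Xk at a distance of 1.22, Ms4a4d at 1.31 and Dkk2 at 1.37 on the log2 scale, and 0 lay within 1. Dkk2, a secreted Wnt pathway modulator, was higher in the ureters by 3.69, 4.15 and 4.10 in turn. Srf, Mef2c and Elk1, the others with a difference of at least 1, had 2515, 1223 and 629 genes within a distance of 1. Their nearest genes were Spin2c, Hdgfl2 and Cntn4 for Srf, Fam220a, Elmod1 and Pnpt1 for Mef2c, and Bbs2, Sulf1 and Vill for Elk1. Such counts depend on how far a difference lies from those of most genes (5th to 95th percentile -3.43 to 1.72). The 0 for Myocd therefore does not mark its pattern as particular.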

How the data were processed

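Per the labels' protocols, total RNA was amplified over 2 rounds and labelled with biotin. The authors deposited 1 intensity per probe set for each array, not on a log scale. Per the submitters' processing notes, GCOS was used; its version, the summary method and the background step are not given in the sources used here. The mean of each array after trimming 2% at each end was 1500, a scaling made by the authors before deposit.

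After 64 controls were left out, the arrays were quantile normalized, since their median log2 values spanned 1.11. Then the 40% of probe sets with the lowest mean of both groups were dropped, leaving 27022. A probe set dim in 1 group could thus pass through the other. For the test, 12.23 (the 10th percentile of the deposited intensities) was added before taking log2, which understates changes of dim probe sets. Probe sets of a gene are ordered by mean intensity. Limma 3.58.1 (R 4.3.3, lmFit, eBayes with trend, two-sided) compared the groups with 2 residual degrees of freedom. On simulated data the same steps recovered 50% of log2 changes of 2 and 80% of those of 5. A gene that did not pass may therefore still differ. The number of arrays limits the precision. In the 3'-to-5' controls, Actb ratios were 2.88 to 4.89 and Gapdh ratios 16.6 to 21.6. One symbol was given for 34958 probe sets, several for 932 and none for 9160.

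The members and lists were chosen with earlier results of these data known. Of the 8 pathway lists, 1 is not reported here, although the total over the lists includes it. Named genes are all members, up to 4 called genes of each list with the largest difference, and the 3 genes nearest to each member that differed by at least 1; the genes of smallest difference, which the rule also allowed, are not given. Fhl1, Mrtfa, Mrtfb, Elk3, Klf5, Myl9, Myl6, Vcl and Dmd were named outside this rule, after their values were seen. Alternatives changed the scaling, offset, filter, trend, the probe set that stands for a gene and the ureters used.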

Additional observations from a re-analysis of the deposited data

How the results depend on the processing

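The count of calls over all probe sets was 1720 and moved to 1100 without the filter, 1074 without the intensity trend and 262 to 2147 when a ureter was left out, 262 being without replicate 3. Of all calls 46.2% were higher, against 34.5% as deposited and 52.8% with median-centred arrays. Called genes in the lists numbered 28, 14 without the trend, and ranged from 7 to 32 without a ureter, 7 being without replicate 3. Of the 9 genes, 1 was called, against 0 as deposited, without the filter, without the trend and without replicate 3, and 2 with 60% filtered out (Mef2c added) or with probe sets averaged (Elk1 added). Of their probe sets 1 was called, against 0 as deposited, without the filter and without the trend, 2 with 60% filtered out, and 0 to 2 when a ureter was left out.

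Signs of uncalled differences turned as follows. With median-centred arrays, Klf4 gave 0.23 (brighter probe set) and 0.24 (dimmer), the dimmest tested Mef2a probe set 0.17, the second in brightness of Mef2c 0.30, the brightest of Mef2d 0.51, and Mrtfb 0.21. As deposited, the dimmer Srf probe set gave -0.27 and the dimmer Elk4 one -0.001. Without a ureter, differences ranged from -0.029 to 0.081 at the bright Elk4 probe set, from -0.208 to 0.625 at the dim one, from -0.436 to 0.004 at the dimmer Klf4 one, from -0.423 to 0.012 at the dimmest tested Mef2a one and from -0.703 to 0.216 at the dimmest Mef2c one. The causes were not tested. The called Myocd difference kept its sign in all 10 alternatives. No paired analysis was possible because the reference has 1 array. Dim probe sets, 8 of the 29, were limited by signal over background and carry no test.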
